A study of Mus musculus with 15 samples.

Results

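Lysosomal hydrolases, the vacuolar proton pump that acidifies the lysosome, and a few of their membrane partners and regulators were followed in 15 RNA-seq libraries of alveolar macrophages. The set holds 35 genes, taken by symbol from a table of 40510 genes, and all 35 were found, passed the filter on low counts and were tested. It comprises 16 hydrolases, the hydrolase activator prosaposin (Psap), 12 genes of the proton pump (10 subunits and the accessory proteins Atp6ap1 and Atp6ap2), 4 lysosomal membrane proteins and the transcription factors Tfeb and Tfe3. The list names genes by their function, and it was drawn up with earlier results of these data known.

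The libraries came from bronchoalveolar lavage cells of C57BL/6 mice, sorted as CD45+, Ly6G-, SiglecF+ and CD11c+ and divided by CD11b, an integrin chain encoded by Itgam. The 5 groups of 3 libraries were CD11b-high and CD11b-low cells of CGD/Cybb knockout (KO) mice aged 12 weeks, CD11b-low cells of wild-type (WT) mice aged 12 weeks, and CD11b-low cells of KO and of WT mice aged 4 weeks. CGD is chronic granulomatous disease, and Cybb encodes the catalytic subunit of the phagocyte NADPH oxidase NOX2; the knockout is present in every cell of the mouse, so an effect inside the macrophage and an effect of its surroundings cannot be told apart. Each library pooled 2 to 3 mice of a group (about 50000 cells), so p-values measure the spread between such pools, and no CD11b-high WT library was analysed here.

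A lysosome breaks down what a macrophage takes up, by means of soluble hydrolases that work in acid. The acid is made by the vacuolar ATPase, in which a cytosolic V1 sector splits ATP and turns a rotor, and a membrane V0 sector carries protons across. TFEB and TFE3 are related transcription factors that, when they enter the nucleus, switch on many lysosomal genes through a short palindrome known as the CLEAR element. In the alveolus, macrophages use this machinery to clear surfactant lipid, inhaled particles and dead cells.

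Library totals ran over 22856331 to 36458893 counts, which gave all 35 genes enough counts to be tested. Cybb itself had 129 to 221 CPM (counts scaled by library size and TMM factor) over the 9 KO libraries, against 899 to 2320 CPM over the 6 WT libraries, so no library went against its genotype label, and part of the transcript was still counted in KO cells. Itgam had 30.7 to 88.4 CPM in the CD11b-high libraries, against 0.805 to 6.26 CPM in the others. The 9 alveolar macrophage markers summed to 29000 CPM or more in every library, here scaled by library total without the TMM factor. Some libraries stood apart. Replicate 1 of WT cells at 12 weeks was the lowest of all 15 libraries for 17 of the 35 genes, and it was also the lowest for 21.7% and the highest for 22.3% of all tested genes. The replicate 1 libraries of the 3 groups at 12 weeks also shared a pattern: in each of these groups replicate 1 was the highest for Naglu, Lamp1, Mcoln1 and Tfe3 and the lowest for Hexa, Gusb, Fuca1, Psap and Atp6v1h. Of all tested genes, 12.6% were highest and 12.4% lowest in replicate 1 of all 3 groups, so the pattern is not particular to the members. Where leaving out these replicate 1 libraries ends the call of a named gene, this is said beside the call. The labels do not say what a replicate number stands for.

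Promoters that hold the CLEAR palindrome are shown first, because it is the sequence through which TFEB and TFE3 are known to act. RefSeq (GRCm38.p6) gave promoter windows, 250 bases before to 50 bases after a transcript start, for 31 of the 35 genes. The 8-letter core TCACGTGA, which reads the same on both strands, lay in the window of 5 of these 31 genes (16.1%), against 1.12% of 27025 genes with a window. Its 6-letter centre CACGTG, which every TCACGTGA also contains, lay in 11 of 31 (35.5%), against 8.09% of all genes. By class, the core was found in 1 of 15 hydrolase genes (Gla) and in 2 of 9 pump genes (Atp6v1a and Atp6v0d1), and in the membrane protein genes Cln3 and Mcoln1. A match describes the letters and does not show that a factor binds there. Gla, on the minus strand of chromosome X, carried the core in 2 places, 224 and 191 bases before its start. The windows are printed 5′ to 3′ on the strand of the gene, with each TCACGTGA or CACGTG in capitals.
Gla, chrX:134600956-134601255, minus strand: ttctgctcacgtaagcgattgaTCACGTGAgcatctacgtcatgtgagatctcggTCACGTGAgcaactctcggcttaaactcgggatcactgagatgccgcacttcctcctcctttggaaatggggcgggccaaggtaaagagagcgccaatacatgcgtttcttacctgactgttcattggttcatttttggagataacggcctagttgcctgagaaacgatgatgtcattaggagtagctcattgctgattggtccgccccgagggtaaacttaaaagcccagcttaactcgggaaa
Atp6v1a, chr16:44139210-44139509, minus strand: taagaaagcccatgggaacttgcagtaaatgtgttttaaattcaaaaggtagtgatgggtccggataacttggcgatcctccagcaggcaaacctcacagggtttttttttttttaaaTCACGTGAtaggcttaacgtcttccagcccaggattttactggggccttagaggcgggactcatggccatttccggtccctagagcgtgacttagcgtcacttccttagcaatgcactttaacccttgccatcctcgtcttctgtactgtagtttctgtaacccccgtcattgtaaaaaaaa
Cln3, chr7:126583187-126583486, minus strand: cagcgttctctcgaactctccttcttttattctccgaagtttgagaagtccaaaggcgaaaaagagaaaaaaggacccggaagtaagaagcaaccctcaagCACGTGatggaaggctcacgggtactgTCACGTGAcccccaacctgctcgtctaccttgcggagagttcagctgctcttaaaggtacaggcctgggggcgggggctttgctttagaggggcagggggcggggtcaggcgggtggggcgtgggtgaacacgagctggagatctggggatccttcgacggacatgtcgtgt
Mcoln1, chr8:3500269-3500568, plus strand: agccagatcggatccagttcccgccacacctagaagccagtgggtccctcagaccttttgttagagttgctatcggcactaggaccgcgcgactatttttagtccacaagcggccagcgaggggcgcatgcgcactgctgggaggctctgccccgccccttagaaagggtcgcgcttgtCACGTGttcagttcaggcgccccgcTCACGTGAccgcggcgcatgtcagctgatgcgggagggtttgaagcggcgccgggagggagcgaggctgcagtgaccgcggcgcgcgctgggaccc
Atp6v0d1, chr8:105566015-105566314, minus strand: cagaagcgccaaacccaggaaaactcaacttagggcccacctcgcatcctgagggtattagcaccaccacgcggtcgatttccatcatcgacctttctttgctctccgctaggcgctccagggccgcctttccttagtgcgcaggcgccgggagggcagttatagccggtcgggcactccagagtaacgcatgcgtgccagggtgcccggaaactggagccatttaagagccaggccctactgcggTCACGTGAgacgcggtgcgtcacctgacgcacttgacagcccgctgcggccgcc
In Atp6v1a the core lay 128 bases before the start of the window's transcript, in Cln3 118, in Mcoln1 42, and in Atp6v0d1 on the start itself. Another window of Cln3, chr7:126585768-126586067, lies at the outer end of the annotated gene and holds neither TCACGTGA nor CACGTG. Asah1, Atp6v1b2, Atp6v1c1 and Atp6v1h are the members without a window.

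**Figure D1:**
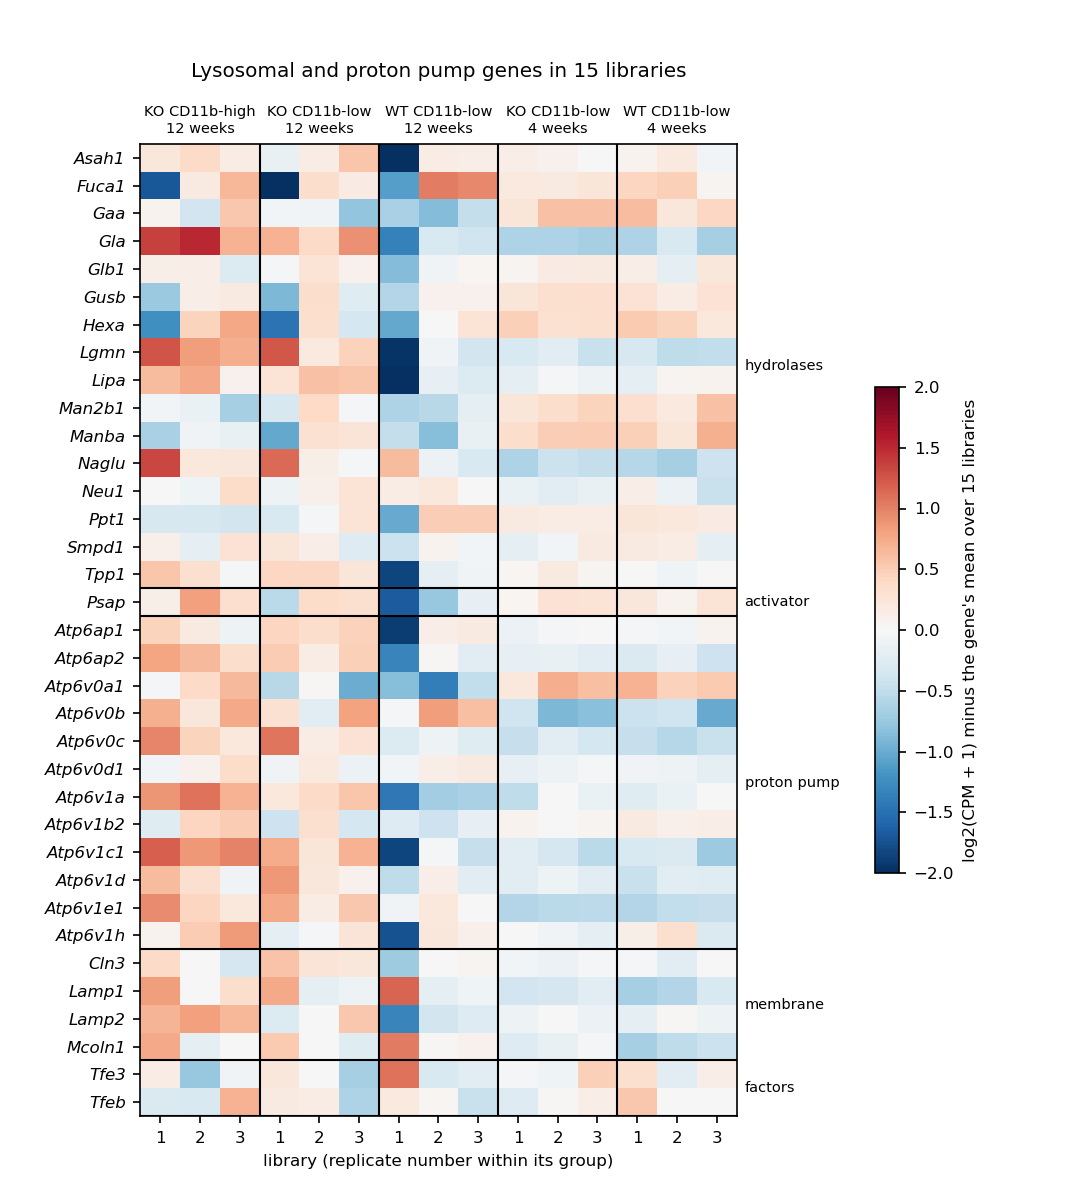
Levels of the 35 genes in the 15 libraries, as log2(CPM + 1) minus the mean of the gene over the 15 libraries, with columns grouped by genotype, CD11b and age and rows by class; colours end at 2 in either direction. Gla, Lgmn, Atp6v1a and Atp6v1c1 are red in the KO libraries at 12 weeks, replicate 1 of WT at 12 weeks is blue for most hydrolase and pump genes, and the 6 libraries at 4 weeks look alike.

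The comparison of KO with WT CD11b-low cells at 12 weeks asked how the genotypes differ within this sort gate in adult mice. Gla, the enzyme that removes terminal alpha-galactose from glycolipids, and Atp6v1a, the ATP-splitting catalytic subunit of V1, were higher in KO cells. These were the only members called, 2 of 35, with none lower, against 3.1% of the 13284 genes tested. A call means a Benjamini-Hochberg adjusted p below 0.05 in the edgeR quasi-likelihood test over the whole table.

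Markers of other cell types, summed as CPM of library totals without TMM factors, moved with the groups at 12 weeks. T and NK cell markers summed to 30.8 to 83.9 CPM in CD11b-high KO and 38.7 to 113 CPM in CD11b-low KO libraries, against 2.86 to 5.97 CPM in WT libraries. Eosinophil markers summed to 299 to 999 and 123 to 617 CPM in these KO groups, against 10 to 17.1 CPM in WT libraries, and dendritic cell markers to 58 to 326 and 35.5 to 70.4 CPM, against 10.8 to 20.3 CPM. Neutrophil markers summed to 372 to 503 and 177 to 226 CPM, against 94.9 to 121 CPM. Erythroid markers were lower, with 49.5 to 151 and 67.9 to 123 CPM in the KO groups, against 493 to 1350 CPM in WT libraries. Lung epithelium markers were lower as well, with 27 to 37.2 and 13.9 to 30.5 CPM, against 56.2 to 119 CPM. B cell markers summed to 1.93 to 6.69 and 1.93 to 14.3 CPM, against 0.584 to 1.38 CPM. Monocyte markers summed to 11.1 to 64.3 and 6.83 to 22.1 CPM, against 6.03 to 9.21 CPM. Of the lists, 1 of 5 eosinophil markers in CD11b-high KO cells and 2 of 5 in CD11b-low KO cells had no counts, against 3 of 5 in WT cells. Their part in the values of the lysosomal genes was not tested, and in pooled cells a change in the kinds of cell present and a change in RNA per cell cannot be told apart.

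Gla (ENSMUSG00000031266, GRCm38 chrX:134588149-134601125) had 184, 148 and 213 CPM in KO cells, against 43.6, 91.3 and 85.5 CPM in WT cells. The lowest KO library was above the highest WT library. The log2 fold change was 1.31 (SE 0.28, adjusted p = 0.0149 in the edgeR quasi-likelihood test), a 2.47-fold difference. Without KO replicate 3 the adjusted p was 0.0521.

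Atp6v1a (ENSMUSG00000052459, chr16:44085402-44139705) had 435, 495 and 556 CPM in KO cells, against 140, 233 and 242 CPM in WT cells. Again no library of one genotype reached into the range of the other. The log2 fold change was 1.27 (SE 0.24, adjusted p = 0.0063 in the same test), and the call was kept when any single library was left out. Without WT replicate 1 the log2 fold changes were 1.04 for Gla and 1.06 for Atp6v1a, with adjusted p = 0.0327 and 0.0125. Fitted on these 2 groups alone, without the spread shared with the other groups, neither gene passed (adjusted p = 0.142 and 0.127). Without KO replicate 3 the number of members called was 1, and without WT replicate 2 it was 4, all higher. DESeq2 called 5, adding Lgmn, Atp6v1c1 and Lipa.

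The other hydrolases spread widely. Lgmn, the asparaginyl endopeptidase legumain, had 825, 397 and 477 CPM in KO cells, against 88.4, 329 and 268 CPM in WT cells. All 3 KO libraries were higher than all 3 WT libraries, yet the difference of 1.31 on the log2 scale did not pass (adjusted p = 0.0611, SE 0.37). Fuca1, which removes fucose, lay at the other end, with 85.0, 479 and 422 CPM in KO cells, against 174, 763 and 735 CPM in WT cells, and a log2 fold change of -0.76 that did not pass. In both genotypes its replicate 1 library was far below the others. With the 3 replicate 1 libraries at 12 weeks left out, 4 members were called higher (Atp6v1a, Gla, Psap and the acid lipase Lipa) and Fuca1 was called lower (log2 fold change -0.73, adjusted p = 0.0404).

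Among pump genes the log2 fold changes ran from -0.15 for Atp6v0b, a proteolipid of the V0 ring, to 1.27 for Atp6v1a. Every KO library was above every WT library for 10 of the 35 members, 4 hydrolases, 5 pump genes and 1 membrane protein, against 9.82% of all tested genes. The median log2 fold change was 0.39 over the 16 hydrolases and 0.53 over the 12 pump genes, beside -0.04 over all tested genes. Both medians were lower without WT replicate 1, at 0.27 and 0.41.

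Of the membrane proteins and regulators, none passed in that comparison. Lamp1, an abundant glycoprotein of the lysosomal membrane, had 433, 224 and 240 CPM in KO cells, against 574, 225 and 241 CPM in WT cells, and differed mainly by replicate 1 in both. Lamp2, its relative with a role in autophagy, had 479, 582 and 836 CPM in KO cells, against 231, 446 and 481 CPM in WT cells, and these ranges overlap narrowly (log2 fold change 0.71, adjusted p = 0.153). Mcoln1, a calcium channel of the lysosomal membrane, had a log2 fold change of -0.34, the lowest of the 4 membrane proteins. Tfeb and Tfe3 were low in all groups: Tfeb had 7.41, 7.22 and 3.82 CPM in KO cells, against 7.49, 6.62 and 4.47 CPM in WT cells. Tfe3 had 16, 13.6 and 8.12 CPM in KO cells, against 30, 10.8 and 11.4 CPM in WT cells. Their mRNA level says nothing about where the proteins are in the cell.

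**Figure D2:**
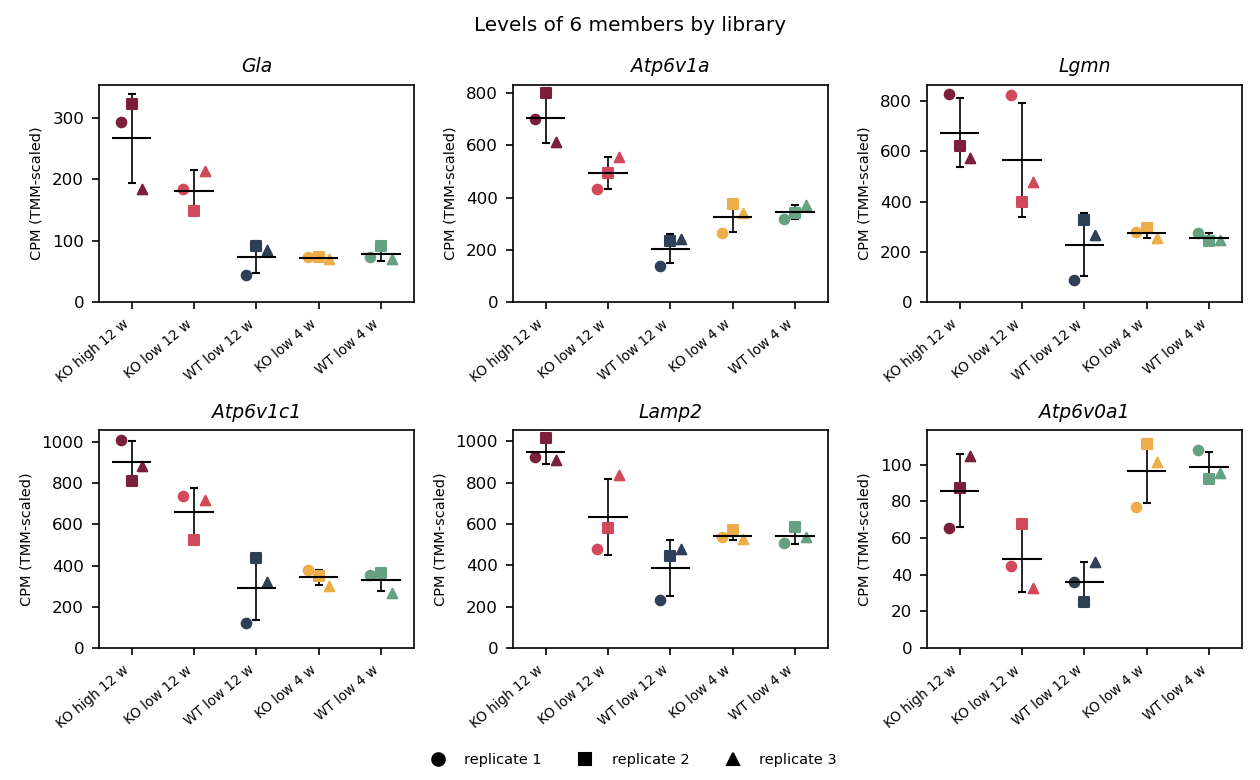
CPM by library for 6 members named in the comparisons at 12 weeks, from KO CD11b-high cells at 12 weeks at the left to WT CD11b-low cells at 4 weeks at the right; symbols give the replicate number, horizontal bars the mean and error bars the SD of 3 libraries. Gla, Atp6v1a and Atp6v1c1 have all KO libraries at 12 weeks above all WT libraries, and Atp6v0a1 lies at 25 to 67.8 CPM in the CD11b-low libraries at 12 weeks, against 77.1 to 111 CPM at 4 weeks.

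The CD11b-high KO cells were set against the same 3 WT CD11b-low libraries, so this comparison and the preceding one share those samples, and it joins a difference in genotype with a difference in sort gate. Here 11 of the 35 members were higher and none lower, against 14.8% of all tested genes. They were 4 hydrolases, 5 pump genes, Psap and Lamp2. Every KO library was above every WT library for 13 members, against 15.6% of all tested genes.

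Gla had 293, 322 and 184 CPM in CD11b-high KO cells, against the 43.6 to 91.3 CPM of WT cells given earlier (log2 fold change 1.86, SE 0.28, adjusted p = 0.000311 in the edgeR quasi-likelihood test). Atp6v1a had 700, 800 and 614 CPM, against 140 to 242 CPM in WT cells (1.78, SE 0.24, adjusted p = 0.000106). Atp6v1c1, the V1 subunit that links the motor to its stator, had 1010, 808 and 883 CPM in CD11b-high KO cells, against 123, 434 and 322 CPM in WT cells. Its log2 fold change was 1.62 (SE 0.33, adjusted p = 0.00359). In each of these 3 genes the KO and WT ranges were well apart.

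Lgmn had 828, 620 and 574 CPM in CD11b-high KO cells, against 88.4 to 329 CPM in WT cells (1.56, SE 0.37, adjusted p = 0.00917). Lamp2 had 924, 1014 and 910 CPM, against 231 to 481 CPM in WT cells (1.30, SE 0.27, adjusted p = 0.0037). Atp6v0a1, the V0 subunit through which protons leave the ring, had 65.3, 87.2 and 105 CPM in CD11b-high KO cells, against 36.3, 25 and 46.8 CPM in WT cells (1.25, SE 0.29, adjusted p = 0.00768). These 3 calls, and those of Gla, Atp6v1a and Atp6v1c1, held with any single library left out.

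The other 5 calls were less steady. Psap, the precursor of the saposins that present lipids to hydrolases, had 5113, 8333 and 5907 CPM in CD11b-high KO cells, against 1484, 2789 and 4174 CPM in WT cells (log2 fold change 1.20, adjusted p = 0.0233 in the edgeR quasi-likelihood test). Lipa, the acid lipase that frees cholesterol and fatty acids, had 3222, 3488 and 2194 CPM, against 510, 1841 and 1713 CPM in WT cells (1.13, adjusted p = 0.037). Atp6ap2, an accessory protein of pump assembly, had 716, 650 and 524 CPM, against 165, 418 and 352 CPM in WT cells (1.02, adjusted p = 0.0202). In all 3 genes WT replicate 1 was the lowest library, and the lowest KO library lay above the highest WT library.

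Psap was no longer called without KO replicate 2 or without WT replicate 2, and Lipa and Atp6ap2 without KO replicate 1 or without KO replicate 2. The highest adjusted p of these fits was 0.121 for Psap, 0.139 for Lipa and 0.0678 for Atp6ap2. Atp6v0c, a proteolipid of the V0 ring, had 343, 236 and 202 CPM in CD11b-high KO cells, against 145, 163 and 146 CPM in WT cells (log2 fold change 0.78, adjusted p = 0.046). Gaa, which degrades glycogen, had 53.2, 38.4 and 73.8 CPM, against 32, 27.2 and 35.9 CPM in WT cells (0.80, adjusted p = 0.0494). Both lay just inside the threshold and were lost on leaving out 1 library, whichever it was, except KO replicate 3 for Atp6v0c and KO replicate 2 for Gaa (highest adjusted p 0.184 and 0.219). Without the replicate 1 libraries at 12 weeks together Gaa had an adjusted p of 0.056. Counts of Atp6v0c may also be shared with a near-identical processed copy, so its value is uncertain.

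Fitted on these 2 groups alone, only Gla and Atp6v1a passed (adjusted p = 0.0137 and 0.0102). Without KO replicate 2 the number of members called was 7, all higher. Without WT replicate 1 it was 9 higher and 1 lower, the lower being Ppt1, a palmitoyl thioesterase (log2 fold change -0.83, adjusted p = 0.00495). Ppt1 had 554, 549 and 536 CPM in CD11b-high KO cells, against 343, 970 and 966 CPM in WT cells, so WT replicate 1 alone lay below the KO libraries. The class medians were 0.32 for hydrolases and 0.65 for pump genes, beside -0.01 for all tested genes. Without WT replicate 1 they were 0.10 and 0.49.

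Within KO mice at 12 weeks, CD11b-high and CD11b-low cells differed in none of the 35 members at an adjusted p below 0.05 in the edgeR quasi-likelihood test, against 0.693% of all tested genes. At an unadjusted p below 0.05 there were 3, Atp6v0a1, Lamp2 and Atp6v1a, all higher in CD11b-high cells, against 10% of all tested genes. DESeq2 called none of the 35 members. Atp6v0a1 had 65.3, 87.2 and 105 CPM in CD11b-high cells, against 44.8, 67.8 and 33.0 CPM in CD11b-low cells (log2 fold change 0.82, adjusted p = 0.262), and these groups overlap. Atp6v1a had 700, 800 and 614 CPM in CD11b-high cells, against 435, 495 and 556 CPM in CD11b-low cells, without overlap (0.51, adjusted p = 0.485). Of all tested genes, 7.91% were higher in CD11b-high cells without overlap. The lowest value was that of Ppt1, at -0.34. Class medians were 0.04 for hydrolases and 0.22 for pump genes, beside 0.01 for all tested genes; the hydrolase median was -0.07 without CD11b-low replicate 1. The same-numbered libraries of these 2 groups deviated together to some degree (correlations 0.429, 0.353 and 0.113), which the main fit does not take into account. A fit with the replicate number as a block also called no member.

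At 4 weeks, between KO and WT CD11b-low cells, none of the 35 members was called by the edgeR quasi-likelihood test, against 0.0979% of all tested genes. DESeq2 called no member either. None had an unadjusted p below 0.05 in the edgeR test, against 1.5% of all tested genes. The fit shares 1 spread over all 5 groups, so the wider spread at 12 weeks entered this test and small differences could go uncalled. Gla had 73.4, 73.1 and 70.7 CPM in KO cells, against 73.2, 91.6 and 70.8 CPM in WT cells. Atp6v1a had 264, 376 and 343 CPM in KO cells, against 318, 343 and 374 CPM in WT cells. The groups overlap in both genes. Every KO library was above every WT library for 3 members, Mcoln1, Tpp1 and Atp6v1d, against 3.91% of all tested genes, and below every WT library for 1, Atp6v1b2, against 4.72%. Mcoln1 had 14.2, 15.4 and 16.9 CPM in KO cells, against 10.5, 11.7 and 12.5 CPM in WT cells. Log2 fold changes over the 35 genes ran from -0.25 for Tfeb to 0.42 for Mcoln1, and the class medians were -0.02 for hydrolases and -0.03 for pump genes. Erythroid markers, summed without TMM factors, had 52.5 to 171 CPM in KO libraries, against 1810 to 8300 CPM in WT libraries. B cell markers had 0.658 to 1.11 CPM, against 1.5 to 3.59 CPM. The other marker sums overlapped between the genotypes at 4 weeks, and the part of other cells was not tested.

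The libraries at 4 weeks were also the most alike. The median SD of log2 CPM over the 35 members was 0.08 in KO and 0.13 in WT cells at 4 weeks, beside 0.36 in CD11b-high KO, 0.41 in CD11b-low KO and 0.51 in WT cells at 12 weeks. Over all tested genes these SDs were 0.19, 0.26, 0.37, 0.39 and 0.53 in the same order of groups. The groups at 12 weeks were thus the more variable for members and for genes at large.

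The difference between the genotype effects at 12 and at 4 weeks was tested directly. No member passed in the edgeR quasi-likelihood test, against 0.248% of all tested genes. At an unadjusted p below 0.05 there were 5 members, against 8.3% of all tested genes. These were Gla (difference in log2 fold change 1.42, adjusted p = 0.208), Atp6v1a (1.35, adjusted p = 0.137), Lgmn (1.19), Lipa (1.18) and Atp6v1c1 (1.11). DESeq2 called Atp6v1a (adjusted p = 0.0127), and so did the fit without the replicate 1 libraries at 12 weeks (1.22, adjusted p = 0.0476). The fit without the low-count filter called Gla (1.42, adjusted p = 0.0348).

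Between 4 and 12 weeks Gla and 3 pump genes were called higher in KO CD11b-low cells and Atp6v0a1 was called lower. In WT cells Atp6v0b and Mcoln1 were called higher and 3 hydrolases and 2 pump genes lower. Atp6v0b and Atp6v0a1 were called in the same direction in both genotypes. The 5 members called in KO cells stand against 6.89% of all tested genes. The 7 called in WT cells stand against 17.2% of all tested genes, 1167 higher and 1115 lower, and their share of the members is close to that. With library totals alone the calls were 2 higher and 2 lower in KO cells, and 1 higher and 7 lower in WT cells. With that scaling in place of TMM factors, the median over all genes moved by -0.33 in KO and by -0.23 in WT cells, and by -0.10 in the difference of the genotype effects. TMM factors were 0.83 to 1.04 at 12 weeks and 1.10 to 1.17 at 4 weeks, and the changes are relative to that scale. Markers of other cell types, again summed without TMM factors, moved with age too. In KO CD11b-low cells T and NK cell markers summed to 38.7 to 113 CPM at 12 weeks, against 1.5 to 3.42 CPM at 4 weeks, eosinophil markers to 123 to 617 CPM, against 16.4 to 39.2 CPM, and dendritic cell markers to 35.5 to 70.4 CPM, against 4.99 to 11.7 CPM. In WT cells erythroid markers summed to 493 to 1350 CPM at 12 weeks, against 1810 to 8300 CPM at 4 weeks, and lung epithelium markers to 56.2 to 119 CPM, against 15.9 to 42.1 CPM. Their part in the age changes was not tested. The labels give no dates, so age and any difference in preparation between the ages cannot be told apart.

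In KO cells Gla had 184, 148 and 213 CPM at 12 weeks, against 73.4, 73.1 and 70.7 CPM at 4 weeks (log2 fold change 1.33, SE 0.28, adjusted p = 0.00942 in the edgeR quasi-likelihood test). Atp6v1e1, a stator subunit of V1, had 1380, 903 and 1184 CPM at 12 weeks, against 543, 556 and 564 CPM at 4 weeks (1.06, SE 0.23, adjusted p = 0.012). Both were higher in every library at 12 weeks, as were 19% of all tested genes. Atp6v0c had 366, 194 and 213 CPM at 12 weeks, against 126, 150 and 136 CPM at 4 weeks (0.91, adjusted p = 0.04). Atp6v0b had 1460, 1005 and 2054 CPM at 12 weeks, against 894, 630 and 657 CPM at 4 weeks (1.05, adjusted p = 0.0447). Atp6v0a1 was the member that fell, with 44.8, 67.8 and 33.0 CPM at 12 weeks, against 77.1, 111 and 102 CPM at 4 weeks (-0.99, adjusted p = 0.0453).

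In the edgeR quasi-likelihood fit on these 2 groups alone all 5 KO calls were kept. The adjusted p was 0.00276 for Gla, 0.0114 for Atp6v1e1, 0.0345 for Atp6v0b and 0.039 for Atp6v0c and Atp6v0a1. With all 5 groups fitted, the calls were often lost on leaving out 1 library. Gla was lost without replicate 2 or replicate 3 at 4 weeks (highest adjusted p 0.0601), and Atp6v1e1 without KO replicate 1 at 12 weeks or any replicate at 4 weeks (0.0667). The 3 V0 genes were lost on leaving out any 1 library other than KO replicate 2 at 12 weeks (highest adjusted p 0.189 to 0.21). The number of calls was 5 without KO replicate 2 at 12 weeks and 0 to 2 without any other library of the contrast. WT replicate 1 at 12 weeks enters only through the shared spread, and without it 11 members were called, 10 higher and Atp6v0a1 lower. With library totals alone, Atp6v0b and Atp6v0c were not called and Gaa was called lower (-1.07, adjusted p = 0.031), and the medians were -0.29 for hydrolases and 0.24 for pump genes.

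In WT cells Atp6v0a1 had 36.3, 25 and 46.8 CPM at 12 weeks, against 108, 92.2 and 95.6 CPM at 4 weeks (log2 fold change -1.46, SE 0.29, adjusted p = 0.0048 in the edgeR quasi-likelihood test). Gaa had 32, 27.2 and 35.9 CPM at 12 weeks, against 77.8, 59.1 and 67.5 CPM at 4 weeks (-1.10, SE 0.26, adjusted p = 0.0103). Both kept their call with any single library left out. No library at 12 weeks reached the range at 4 weeks, and 18.7% of all tested genes were lower in this way. Atp6v0b rose, with 1146, 2104 and 1776 CPM at 12 weeks, against 870, 895 and 584 CPM at 4 weeks (1.10, adjusted p = 0.0199).

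The mannosidases, which trim glycoprotein sugars, fell in WT cells. Man2b1 had 323, 335 and 437 CPM at 12 weeks, against 622, 564 and 740 CPM at 4 weeks (log2 fold change -0.81, adjusted p = 0.0289 in the edgeR quasi-likelihood test). Manba had 43.8, 33.7 and 55.6 CPM at 12 weeks, against 86.3, 73.2 and 101 CPM at 4 weeks (-0.97, adjusted p = 0.0363). Atp6v1a fell as well, with 140, 233 and 242 CPM at 12 weeks, against 318, 343 and 374 CPM at 4 weeks (-0.75, adjusted p = 0.0381). Mcoln1 rose, with 36.4, 17.4 and 18.3 CPM at 12 weeks, against 10.5, 11.7 and 12.5 CPM at 4 weeks (1.05, adjusted p = 0.0305). In all 4 genes the ages did not overlap. Of all tested genes, 15.6% were higher and 18.7% lower at 12 weeks in WT cells without overlap. In KO cells Gaa and Manba were also lower at 12 weeks without overlap, as were 19.6% of all tested genes. Neither was called there in the main fit.

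Without WT replicate 1 at 12 weeks the called members were Atp6v0a1, Gaa, Man2b1 and Atp6v0b, and the calls of Manba, Atp6v1a and Mcoln1 were lost. Without replicate 2 at 12 weeks, Man2b1, Manba, Atp6v0b and Atp6v1a were lost. Manba, Atp6v1a and Mcoln1 were lost without any 1 library at 4 weeks, and Man2b1 and Atp6v0b without replicate 1 or replicate 3 at 4 weeks, which left 2 to 4 calls. The highest adjusted p over these fits was 0.118 for Man2b1, 0.129 for Manba, 0.102 for Atp6v0b, 0.123 for Atp6v1a and 0.133 for Mcoln1. In the edgeR fit on these 2 groups alone, only Atp6v0a1 and Gaa passed (adjusted p = 0.0234 and 0.0321). The other members called in WT cells were lost there, with adjusted p from 0.0574 for Atp6v0b to 0.13 for Atp6v1a. The WT class medians were -0.34 for hydrolases and -0.14 for pump genes, beside -0.03 for all tested genes, and without replicate 1 at 12 weeks they were -0.06 and 0.19. In KO cells the medians were 0.03 for hydrolases and 0.58 for pump genes, beside -0.02 for all tested genes. Whether the age effect of a class differed between genotypes was not tested for the class.

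**Figure D3:**
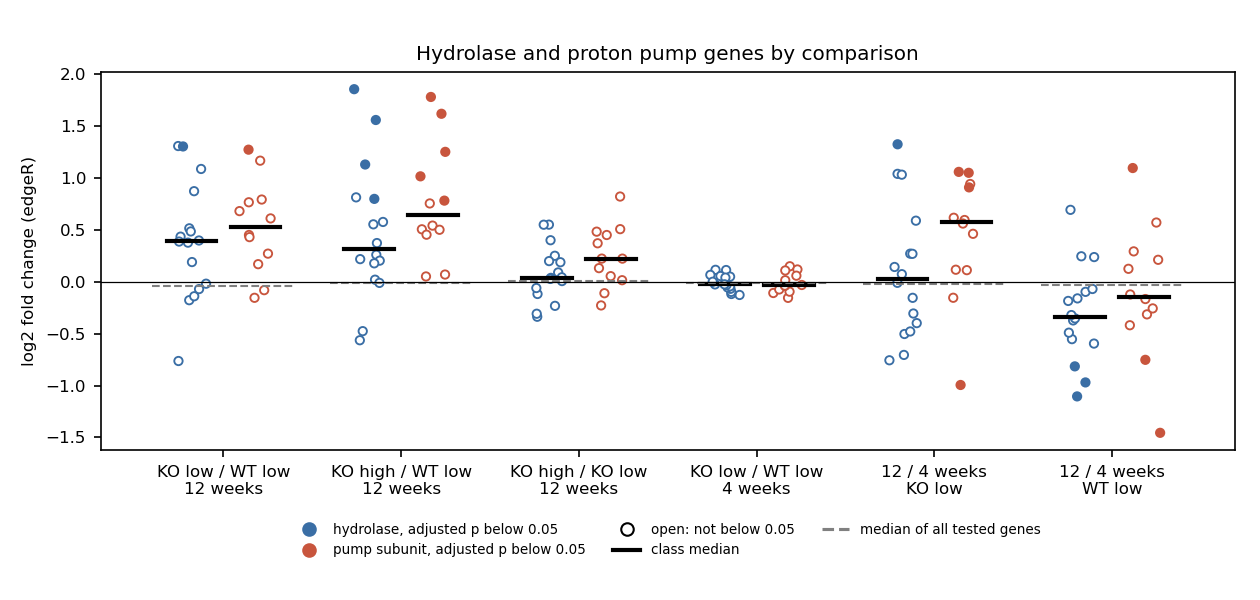
Log2 fold changes (edgeR) of the 16 hydrolase genes and the 12 proton pump genes in 6 comparisons, each written as the first group over the second; filled points have an adjusted p below 0.05, black bars are class medians and dashed lines the median of all tested genes. Points lie close to 0 for KO over WT at 4 weeks and spread from -0.76 to 1.31 for KO over WT CD11b-low cells at 12 weeks.

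Set side by side, the balance of hydrolase and pump transcripts differed between the ages. The ratio of summed hydrolase to summed pump CPM within a library does not depend on the scaling. It was 0.90, 1.21 and 1.02 in CD11b-high KO cells at 12 weeks, 0.88, 1.39 and 1.07 in CD11b-low KO cells at 12 weeks, and 0.74, 1.07 and 1.18 in WT cells at 12 weeks. At 4 weeks it was 1.52, 1.57 and 1.57 in KO cells and 1.54, 1.52 and 1.61 in WT cells. All 9 libraries at 12 weeks were below all 6 at 4 weeks, in both genotypes and both sort gates, while at 12 weeks the 3 groups overlapped.

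The sums are given with TMM factors and, unlike the ratio, depend on the scaling. The pump genes summed to 9086, 7680 and 7679 CPM in CD11b-high KO cells, 7775, 6351 and 7958 CPM in CD11b-low KO cells and 3579, 6638 and 6030 CPM in WT cells at 12 weeks. At 4 weeks they summed to 4598 to 4710 CPM in KO and 4537 to 4915 CPM in WT cells. The hydrolases summed to 7815 to 9295 CPM in CD11b-high KO cells, 6852 to 8807 CPM in CD11b-low KO cells and 2666, 7080 and 7145 CPM in WT cells at 12 weeks. At 4 weeks they summed to 7146 to 7354 CPM in KO cells and 7325 to 7490 CPM in WT cells. Apart from WT replicate 1, the libraries at 12 weeks thus had pump sums above every library at 4 weeks, while their hydrolase sums lay on both sides of those at 4 weeks. In WT replicate 1 both sums were the lowest of all 15 libraries. Without TMM factors hydrolases had 0.276, 0.612 and 0.668% of counts in WT cells at 12 weeks, against 0.803 to 0.833% at 4 weeks. In CD11b-low KO cells they had 0.619, 0.872 and 0.721%, against 0.828 to 0.838%. Pump genes had 0.371, 0.574 and 0.564% in these WT cells, against 0.498 to 0.546%. In CD11b-low KO cells they had 0.702, 0.628 and 0.671%, against 0.527 to 0.552%. How far each class moved with age thus depends on the scaling. A sum is led by its most abundant genes and does not show a rise of each. In WT cells Atp6v0b averaged 1675 CPM at 12 weeks, against 783 CPM at 4 weeks, and Atp6v1e1 845 CPM, against 569 CPM. With all 15 libraries fitted, 5 of the 12 pump genes had a positive log2 fold change with age in WT cells, and 10 of 12 in KO cells.

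**Figure D4:**
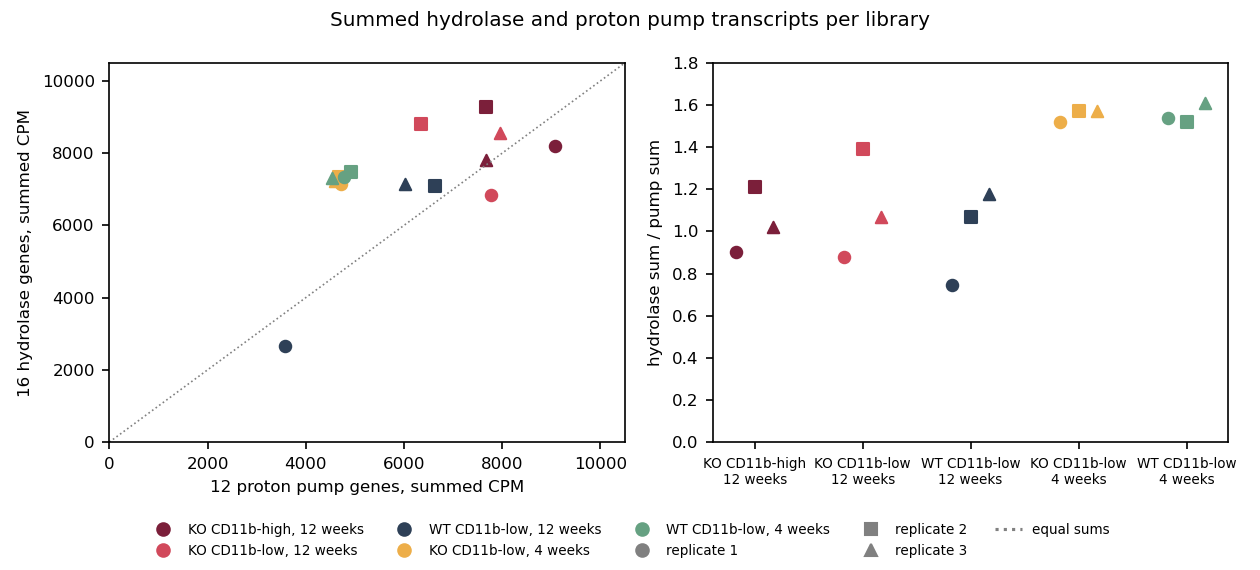
Left, summed CPM of the 16 hydrolase genes against the 12 proton pump genes in each library, with a dotted line of equal sums; right, the hydrolase sum divided by the pump sum by group. The ratios at 4 weeks lie between 1.52 and 1.61 and those at 12 weeks between 0.74 and 1.39.

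Levels of different genes were compared per kilobase of merged exon (GENCODE M21), as the mean CPM per kilobase over the 15 libraries. Psap was the most abundant member at 1829 CPM per kilobase. Among pump genes Atp6v0b (629) and Atp6ap1 (419) led, Atp6v0b in the 3 groups at 12 weeks and Atp6ap1 in both at 4 weeks, and Atp6v0a1 (11.2) was lowest. Among hydrolases Hexa (391), which degrades gangliosides, Lipa (329) and the acid ceramidase Asah1 (262) led over the 15 libraries. The order differed by group: Lipa led in CD11b-high KO cells (438, beside 416 for Hexa) and in CD11b-low KO cells at 12 weeks (425, beside 289 for Asah1 and 284 for Hexa), and Hexa led in the other groups. Over the 15 libraries Manba (9.40) and the acid sphingomyelinase Smpd1 (4.92) were lowest. Tfe3 (1.54) and Tfeb (1.17) were the least abundant members. Subunits of the pump thus differed widely in transcript level; annotated exons that these cells do not use lower such a value.

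Several subunits have alternative isoforms that are no members. Atp6v0d2, the d isoform known from macrophages and osteoclasts, averaged 1431 CPM per kilobase in CD11b-high KO, 1299 in CD11b-low KO and 804.7 in WT cells at 12 weeks, and 879 in KO and 805.5 in WT cells at 4 weeks. Its widespread partner Atp6v0d1 averaged 129, 118 and 124 at 12 weeks and 109 and 107 CPM per kilobase at 4 weeks in the same groups. Atp6v0d2 was thus the more abundant isoform in every group. It was called higher in CD11b-high KO cells than in WT cells at 12 weeks (log2 fold change 0.83, adjusted p = 0.0341 in the edgeR quasi-likelihood test), with 4704, 3705 and 3247 CPM, against 1437, 2545 and 2574 CPM. The call was lost without WT replicate 1, KO replicate 1 or KO replicate 2 (highest adjusted p 0.103), and without the replicate 1 libraries at 12 weeks together (adjusted p = 0.0847).

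The a subunit showed another balance. Over the 15 libraries Tcirg1, the a isoform of osteoclasts and phagocytes, averaged 20.7 CPM per kilobase, beside 11.2 for Atp6v0a1 and 1.14 for Atp6v0a2. Tcirg1 was not called in any of the 7 comparisons. Atp6v0e, a small V0 subunit, averaged 454 CPM per kilobase and was higher at 12 than at 4 weeks in KO (log2 fold change 0.85, adjusted p = 0.0444) and in WT cells (1.07, adjusted p = 0.00826; edgeR quasi-likelihood test). The KO call was lost on leaving out any 1 library other than replicate 2 at 12 weeks (highest adjusted p 0.164), and also without the low-count filter and with library totals. The WT call held with any single library left out. Atp6v1b1, Atp6v1c2 and Atp6v1e2, isoforms known from other tissues, had at most 0.541 CPM in any library, and Atp6v0a4 had no counts.

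Outside the members, 106 further lysosomal genes were listed (hydrolases, pump and assembly factors, membrane proteins, sorting receptors and regulators), of which 99 were tested. In KO against WT CD11b-low cells at 12 weeks 7 were higher and none lower, against 3.1% of all tested genes. Cd63, a tetraspanin of late endosomes, had 1631, 528 and 1085 CPM in KO cells, against 307, 351 and 260 CPM in WT cells (log2 fold change 1.82, adjusted p = 0.0104 in the edgeR quasi-likelihood test). Slc11a1, the metal transporter NRAMP of phagosomes, had 22, 12.1 and 9.40 CPM in KO cells, against 4.83, 4.2 and 1.78 CPM in WT cells (2.00, adjusted p = 0.043). Tpcn2, a cation channel, had 27.3, 26.6 and 24.3 CPM, against 5.96, 13.5 and 9.86 CPM in WT cells (1.42, adjusted p = 0.00897). Acp2, an acid phosphatase, and Fnip2, a partner of folliculin, were also higher, by 1.26 and 1.23 on the log2 scale, and so were Acp5 (1.02) and the AMP kinase subunit Prkaa1 (0.91). The calls of Cd63, Tpcn2 and Acp2 held with any single library left out, but Cd63 was lost without the replicate 1 libraries at 12 weeks (1.40, adjusted p = 0.052), and Tpcn2 and Acp2 were lost on these 2 groups alone (adjusted p = 0.0892 and 0.142). Without those replicate 1 libraries Slc11a1 (1.82, adjusted p = 0.127) and Acp5 (0.59, adjusted p = 0.0764) were lost too. Other calls ended with single libraries: Slc11a1 was lost on leaving out any 1 library other than KO replicate 3 (highest adjusted p 0.109). Fnip2 was lost without KO replicate 1 or 2 or WT replicate 2 or 3 (0.0564), Acp5 without KO replicate 1 or WT replicate 1 or 3 (0.129), and Prkaa1 without KO replicate 2 or 3 or WT replicate 1 (0.082).

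In the CD11b-high KO cells against WT cells 22 of the 99 were higher and 3 lower, against 14.8% of all tested genes. Without KO replicate 2, 10 of these 25 calls were lost. The largest changes were those of the phospholipase-like Plbd1 (log2 fold change 5.44), the mannose 6-phosphate receptor Igf2r (5.43), Slc11a1 (4.21), Rragd (3.64), Sgsh (3.41) and Cd63 (2.61). Several of these were rare: Plbd1 had 1.43, 14.9 and 30.1 CPM in CD11b-high KO cells, against 0.523, 0.382 and 0.137 CPM in WT cells, and Sgsh did not exceed 1.31 CPM in any library. Sgsh was lost without KO replicate 2 or 3 or WT replicate 2 or 3 (highest adjusted p 0.118). Plbd1 was also the only listed gene called between CD11b-high and CD11b-low KO cells (4.03, adjusted p = 0.0467 in the edgeR quasi-likelihood test), with overlapping values of 0.214, 0.656 and 1.99 CPM in CD11b-low cells, and its call was lost on leaving out any 1 library other than CD11b-high replicate 1 (highest adjusted p 0.232). At 4 weeks none of the 99 was called between genotypes, against 0.0979% of all tested genes. Slc11a1 alone had an unadjusted p below 0.05 (log2 fold change -1.93, adjusted p = 1), against 1.5% of all tested genes. Every KO library was above every WT library for 3 of the 99, against 3.91% of all tested genes, and below for 1, against 4.72%. Between the ages, 14 were higher and 1 was lower at 12 weeks in KO cells, against 6.89% of all tested genes. Leaving out 1 library lost 7 to 10 of these 15 calls, the most without KO replicate 3 at 4 weeks, except for KO replicate 2 at 12 weeks, which lost 1; the lower gene, Smpdl3a, was lost each time. In WT cells 12 were higher and 10 lower, a share close to the 17.2% of all tested genes. There 10 to 12 of the 22 calls were lost without any 1 library at 4 weeks, and 8 without replicate 2 at 12 weeks. Cd63 was higher at 12 weeks in both genotypes (3.38 in KO and 1.90 in WT cells), with any single library left out. Lyz1 and Lyz2, which were also called with age, are near-identical copies, so their split is uncertain.

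**Figure D5:**
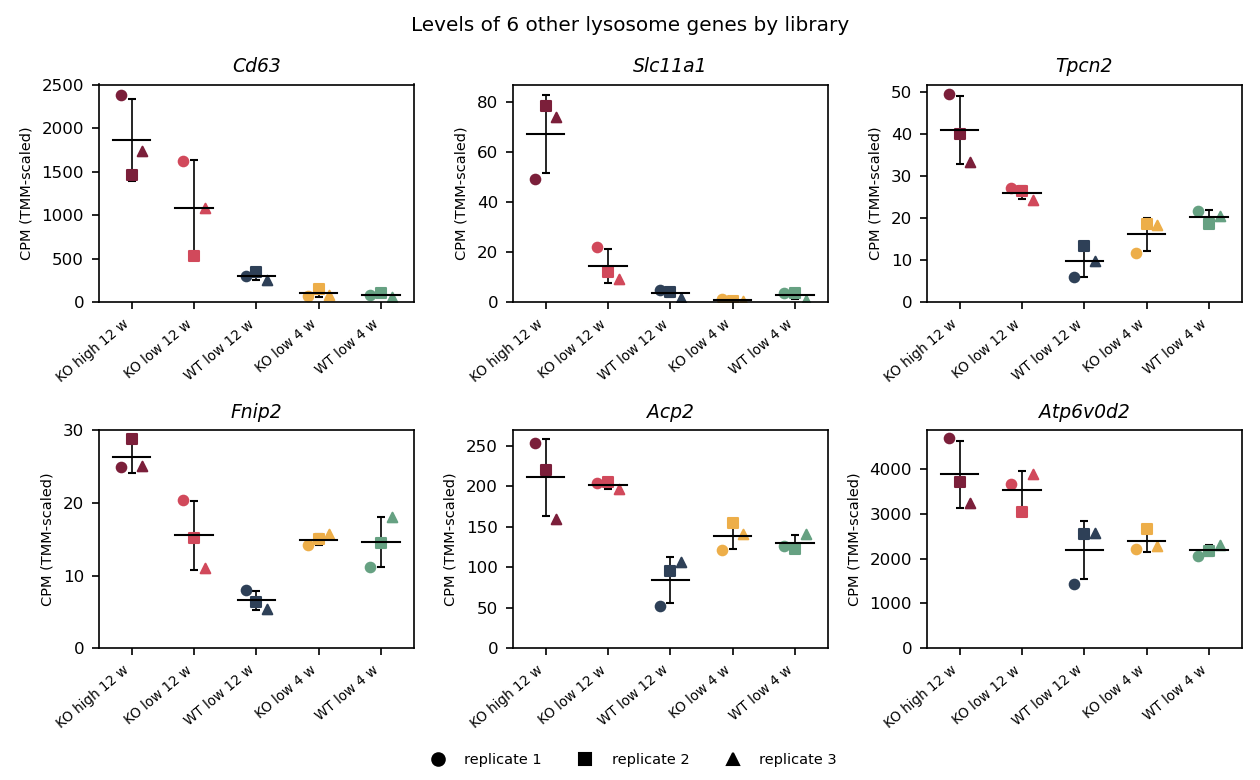
CPM by library for Cd63, Slc11a1, Tpcn2, Fnip2, Acp2 and the pump isoform Atp6v0d2, drawn as for the members: symbols are replicate numbers, bars the mean and error bars the SD of 3 libraries. Slc11a1 lies at 49.3 to 78.3 CPM in CD11b-high KO cells, against 1.78 to 4.83 CPM in WT cells at 12 weeks.

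In 8 of the 35 members some exon bases are shared with another annotated gene, from 0.779% of the exon bases of Atp6v1e1 to 12.8% of those of Hexa, and the sources used here do not say whether the counting used strand.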

How the data were processed

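Whole-number read counts per gene for 15 libraries are used as deposited by the authors; STAR, Subread and featureCounts are named in the submitters' processing notes, without versions, and the genome build is not given in the sources used here. SMARTer kits and the HiSeq3000 are named in the labels. After 270 repeated rows were removed, 40510 genes remained, and filterByExpr (minimum count 10, total 15) kept 13284. All 15 libraries entered 1 edgeR 4.0.16 quasi-likelihood fit (R 4.3.3, robust, TMM factors, 1 coefficient per group, 10 residual degrees of freedom), with Benjamini-Hochberg adjustment over all genes and a threshold of 0.05. CPM were computed from TMM-scaled library sizes. The procedure was tested on simulated data. DESeq2 1.42.0 and the other settings of the closing section were alternatives. The members and lists were chosen with earlier results of these data known. Members past the threshold were named with their values, and related genes by the size of their change, at most 6 in a comparison; members that show a range or a contrast, and Acp5 and Prkaa1, were added after their values were seen. Gene positions and exon lengths are GENCODE M21 (GRCm38), and promoters RefSeq. In KO CD11b-high and CD11b-low cells at 12 weeks, the deviations of same-numbered libraries from their group means correlated at 0.429, 0.353 and 0.113. Each CD11b-high library correlated best with the CD11b-low library of its own number. The labels do not state whether these samples are pairs, and the main fit has no term for the number.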

Additional observations from a re-analysis of the deposited data

Results flagged for a closer look

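Slc11a1, the phagosomal metal transporter that is no member but belongs to the further lysosomal genes, was the listed gene whose genotype effect differed between the ages. The effect at 12 weeks minus that at 4 weeks was 3.926 on the log2 scale (SE 0.76, adjusted p = 0.0353 in the edgeR quasi-likelihood test). In KO cells it had 22, 12.1 and 9.40 CPM at 12 weeks, against 1.32, 0.479 and 0.359 CPM at 4 weeks. In WT cells it had 4.83, 4.2 and 1.78 CPM at 12 weeks, against 3.59, 3.71 and 0.907 CPM at 4 weeks. The test passed with 3 of the 12 single libraries left out and not with the other 9 (adjusted p 0.0188 to 0.134), and without the replicate 1 libraries at 12 weeks the adjusted p was 0.0877.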

How the results depend on the processing

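No called value changed sign, and DESeq2 kept all 96 named calls. Counts of calls moved more. Given in the order KO against WT CD11b-low at 12 weeks, CD11b-high against CD11b-low, CD11b-high KO against WT, KO against WT at 4 weeks, age in KO, age in WT and the difference of genotype effects, the number of all genes called was 412, 92, 1970, 13, 915, 2282 and 33. Without the filter on low counts it was 1090, 533, 73, 1395 and 321 (leaving out CD11b-high KO against WT and age in WT), with 6 members called for KO against WT CD11b-low at 12 weeks, 8 for age in KO and 1 in the difference, and a hydrolase median of -0.0158 between the CD11b gates. DESeq2 gave 873, 265, 22, 1685 and 150 genes and 5, 8 and 1 members in the same comparisons. Fits on only the groups compared gave 189, 18, 793, 4, 1646 and 1123 genes in all but the difference. They gave 0 members for KO against WT CD11b-low at 12 weeks, 2 for CD11b-high KO against WT, 8 for age in KO and 2 for age in WT, with a hydrolase median of 0.243 for CD11b-high KO against WT. The replicate block gave 3 members for age in KO and 66 genes in the difference, and called no member between the CD11b gates. Outside those gates same-numbered libraries correlated at -0.0793 to 0.364, the highest for replicate 1 of KO and WT CD11b-low cells at 12 weeks. The best match there often had another number, and the labels do not state pairs. The remaining settings were chosen after seeing the data. A block on the CD11b gates alone called 252 genes. Library totals without TMM factors called 4 members for KO against WT CD11b-low at 12 weeks and 1498 genes for age in KO (421 higher and 1077 lower, against 639 and 276 with TMM), with hydrolase medians of 0.0305 at 4 weeks and -0.294 for age in KO, where the pump median was 0.24. Without the replicate 1 libraries at 12 weeks 703, 513, 3136, 1984, 3702 and 63 genes were called (all but 4 weeks), and 5 members for KO against WT CD11b-low at 12 weeks, 13 for age in KO and 1 in the difference. Pump medians were then 0.284 for KO against WT CD11b-low, 0.508 for CD11b-high KO against WT and 0.285 for the difference, and the hydrolase median for CD11b-high KO against WT was 0.205. Leaving out 1 library of the groups compared at a time gave, in the order of the 7 comparisons, 230 to 426, 2 to 247, 952 to 2099, 4 to 15, 235 to 1305, 1069 to 2528 and 3 to 35 genes called. Members called were 1 to 4, 0, 7 to 10, 0, 0 to 5, 2 to 9 and 0. WT replicate 1 at 12 weeks is outside the age contrast in KO but shares its spread, and without it 11 members were called there. Hydrolase medians were 0.267 to 0.524, -0.0721 to 0.0662, 0.103 to 0.41, -0.0282 to 0.0188, -0.0296 to 0.0646, -0.49 to -0.0619 and 0.21 to 0.464. Pump medians were 0.397 to 0.689, 0.139 to 0.262, 0.493 to 0.767, -0.0446 to 0.0231, 0.478 to 0.637, -0.373 to 0.194 and 0.363 to 0.676. The causes were not tested. Of 96 named calls, 9 were lost with RLE factors, 16 without the filter, 6 under the block, 52 with only the groups compared, 19 with library totals and 9 without the replicate 1 libraries. Groups of 3 pools limit what could be called: differences within the spread between pools were not detectable.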
